A study of Homo sapiens with 35 samples.

Results

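ATF4 and 8 genes of the amino acid stress response were followed in H9 human embryonic stem cells through the first 48 h in 3 media. The 9 genes, ATF4, DDIT3, TRIB3, ASNS, CHAC1, PSAT1, PHGDH, SHMT2 and VLDLR, were taken by symbol from the deposited count table, which holds 58581 gene rows, and each had 1 row. H9 is an established pluripotent line, here kept in E8 medium on Matrigel, and every differentiation culture began from single cells. BA cultures received E6 medium plus 40 ng/mL each of BMP4 and Activin A, factors that drive cells toward mesendoderm, from which mesoderm and endoderm arise. E6 cultures received the same base medium without these factors, as the control for spontaneous differentiation, and E8 cultures stayed in the pluripotency medium. Each medium was sampled every 6 h up to 48 h and compared with cells at time 0 (t0). There were 3 replicate libraries of BA at 24 and 48 h, of E6 and E8 at 48 h and of t0, and 1 library in each of the other 20 groups, 35 in all.

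ATF4 is a basic leucine zipper transcription factor at the centre of the integrated stress response. Kinases that sense amino acid shortage (GCN2, encoded by EIF2AK4), misfolded protein in the endoplasmic reticulum (PERK, encoded by EIF2AK3), viral RNA or heme shortage phosphorylate the initiation factor eIF2, which lowers general translation and raises translation of the ATF4 mRNA. ATF4 protein then drives genes for amino acid synthesis and uptake, tRNA charging and, under prolonged stress, the factor CHOP (encoded by DDIT3) and its targets. Because much of ATF4 control lies in translation, the level of its mRNA is not a readout of ATF4 protein.

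All 9 genes passed the filter on low counts in every fit. Levels are given as CPM, counts scaled to a common library total with TMM factors. A gene is called where the edgeR quasi-likelihood F-test, adjusted by the Benjamini-Hochberg method over all genes tested, gave p below 0.05. Library totals were 11793453 to 22115047 counts in the 25 libraries of replicate 1 or without a replicate number, and 26097462 to 37191969 counts in the 10 libraries of replicates 2 and 3. The second set lay above the first in all 5 replicated groups for 6 of the 9 genes, ATF4, DDIT3, ASNS, CHAC1, PHGDH and SHMT2. Across these groups ATF4 was 1.82 to 2.51 times higher in replicates 2 and 3 than in replicate 1, CHAC1 1.35 to 6.54 times and DDIT3 1.59 to 10.4 times. TRIB3 was at 0.948 to 1.54 times, PSAT1 at 0.958 to 1.71 times and VLDLR at 0.914 to 3.21 times, each higher in 4 of the 5 groups. The median difference over 21554 genes was 0.10 on the log2 scale. Separate cultures are not stated for the replicates, so p-values measure the spread between these libraries, which can be technical. Time courses were therefore compared only among the 24 libraries of the first set at 6 to 48 h. Replicated groups are given with each replicate and also for replicates 2 and 3 alone. In that time course the E6 library at 18 h correlated less with its neighbours in time than any of the other 23 libraries, with a mean r across genes of 0.919 against 0.955 to 0.994. Summed mesendoderm markers reached 21.1 to 2810 CPM in BA, 1.90 to 11.8 CPM in E6, 1.40 to 9.19 CPM in E8 and 1.16 to 1.38 CPM at t0. Summed pluripotency markers were 1379 to 5648 CPM in BA, 2854 to 4068 CPM in E6, 2581 to 4086 CPM in E8 and 2926 to 4157 CPM at t0. Of the amnion and trophoblast markers 4 of 5 had counts, with sums of 62.3 to 309 CPM in BA, 0.175 to 2.84 CPM in E6, 0.202 to 2.93 CPM in E8 and 0.239 to 1.15 CPM at t0, and CGA was at 0 in all libraries. The fibroblast markers summed to 169 to 811 CPM in BA, 149 to 421 CPM in E6, 142 to 227 CPM in E8 and 154 to 258 CPM at t0. Among them COL1A2 reached 771 CPM in BA, 185 CPM in E6, 136 CPM in E8 and 97.6 CPM at t0. The highest COL1A1 values were 172, 245, 99.3 and 152 CPM in BA, E6, E8 and t0, and those of COL3A1 were 16.6, 10.2, 9.38 and 8.17 CPM. DCN and LUM stayed at or below 0.379 CPM in every library. Summed neuroectoderm markers were 14.9 to 215 CPM in BA, 31.8 to 341 CPM in E6, 20.7 to 58.0 CPM in E8 and 46.1 to 77.0 CPM at t0. OTX2 reached 214 CPM in BA, 295 CPM in E6, 52.5 CPM in E8 and 75.5 CPM at t0. FEZF1 reached 45.5 CPM in E6, against 1.07 CPM in BA, 1.83 CPM in E8 and 1.31 CPM at t0. The highest SOX1 values were 1.11, 5.25, 5.80 and 5.08 CPM in BA, E6, E8 and t0, and those of PAX6 were 0.967, 1.93, 1.47 and 0.891 CPM. The part of these marker changes in the results was not tested. In these bulk samples, fewer cells with a transcript and less of it per cell cannot be told apart.

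ATF4 binds, with a C/EBP-family or other partner, to a composite element of which TGATGNAA is a common core. The promoters of ASNS, CHAC1 and TRIB3 are shown because the results turn on them: ASNS was higher in BA, and TRIB3 and CHAC1 moved together across libraries. Each line holds the 250 bases before the most upstream start that RefSeq lists for the gene, 5′ to 3′ on the gene's strand (GRCh38.p14), and capitals mark each match to TGATGNAA or its reverse complement TTNCATCA.
ASNS, chr7:97872409-97872658, minus strand: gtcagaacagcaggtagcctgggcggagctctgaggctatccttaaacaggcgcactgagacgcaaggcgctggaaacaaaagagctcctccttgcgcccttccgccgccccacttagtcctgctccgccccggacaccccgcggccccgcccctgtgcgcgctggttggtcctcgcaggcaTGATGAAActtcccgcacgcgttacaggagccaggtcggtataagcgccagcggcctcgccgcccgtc
CHAC1, chr15:40953221-40953470, plus strand: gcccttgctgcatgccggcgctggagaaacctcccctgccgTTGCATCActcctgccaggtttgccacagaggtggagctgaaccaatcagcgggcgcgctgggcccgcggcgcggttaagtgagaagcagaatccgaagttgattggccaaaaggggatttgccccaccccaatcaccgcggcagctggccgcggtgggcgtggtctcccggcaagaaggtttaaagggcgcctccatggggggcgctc
TRIB3, chr20:381045-381294, plus strand: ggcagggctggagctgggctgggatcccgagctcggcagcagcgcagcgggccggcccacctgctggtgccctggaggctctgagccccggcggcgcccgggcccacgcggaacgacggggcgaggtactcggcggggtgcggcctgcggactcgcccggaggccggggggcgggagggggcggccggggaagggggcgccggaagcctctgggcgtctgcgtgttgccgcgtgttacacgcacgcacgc
The ASNS window holds TGATGAAA, which begins 68 bases before the start, and the CHAC1 window holds TTGCATCA, which begins 209 bases before it. The TRIB3 window does not hold these letters. The motif was in 3.14% of all 35116 promoter windows of this length, or in 3.89% of gene symbols. It was in 2 of the 8 genes of the group that the RefSeq table holds, and in 12 of 61 related genes of the table, which are described further on, among them ATF3, CEBPG and IARS1. The variant TGATGCAA, searched on both strands and contained in TGATGNAA, was in 0.772% of windows and 0.967% of symbols, in CHAC1 of the 8 genes and in 10 of the 61. A match is a stretch of letters and was not tested for binding.

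Over the time course, BA and E6 differed in 5 of the 9 genes and in opposite directions. ASNS, which makes asparagine from aspartate and glutamine, and VLDLR, a receptor for lipoproteins and reelin, were higher in BA. TRIB3, a pseudokinase that dampens the stress response and AKT signalling, and the serine and glycine enzymes PSAT1 and SHMT2 were lower in BA. The fit compared the mean of 8 time points with 1 library each, and 30.9% of the 16971 genes tested were called in it, 16.5% higher and 14.3% lower in BA. The median log2 difference was -0.14 over the 9 genes and -0.0035 over all genes tested. All 5 calls held when each time point was left out in turn, without the E6 library at 18 h, and without the libraries with little CDH1 named further on.

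**Figure D1:**
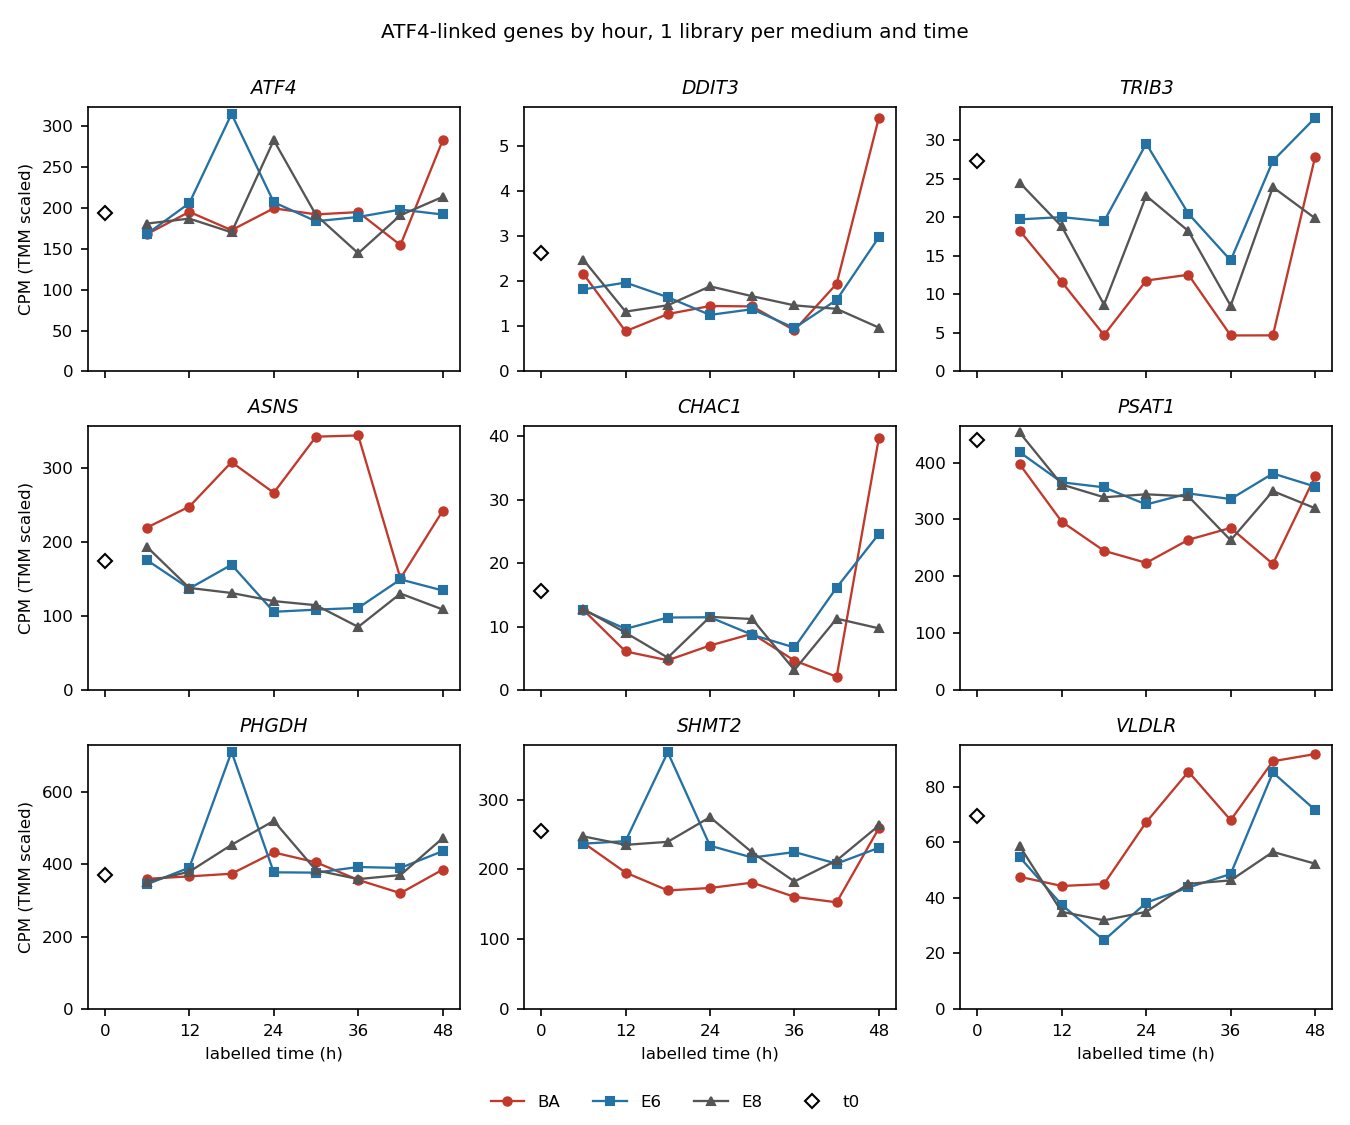
CPM of the 9 genes (vertical axes, from 0) against labelled time in hours, with 1 library per point: BA in red circles, E6 in blue squares, E8 in grey triangles and replicate 1 of t0 as an open diamond. ASNS in BA lies above E6 at 8 of 8 times and TRIB3 below E6 at 8 of 8 times, and the E6 library at 18 h holds the highest ATF4, PHGDH and SHMT2 values.

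The ASNS gene lies at chr7:97852118-97872542 (GRCh38, GENCODE 29, as for the positions that follow). ASNS had 220, 248, 308, 266, 342, 344, 151 and 242 CPM in BA at 6, 12, 18, 24, 30, 36, 42 and 48 h, against 175, 137, 169, 106, 109, 111, 149 and 135 CPM in E6. The E8 libraries at the same times had 193, 138, 131, 120, 115, 85.4, 130 and 109 CPM, and replicate 1 of t0 had 175 CPM. BA exceeded E6 and E8 at 8 of 8 times. The ratio to E6 was highest at 30 h, at 3.15, and lowest at 42 h, at 1.01. The fitted difference between BA and E6 was 1.001 ± 0.168 (log2, SE; adjusted p = 1.90e-04 by edgeR), and lay between 0.86 and 1.13 when a time point was left out.

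TRIB3 (chr20:362835-397559) went the other way. It had 18.3, 11.6, 4.71, 11.8, 12.5, 4.66, 4.67 and 27.8 CPM in BA from 6 to 48 h, against 19.7, 20.0, 19.5, 29.6, 20.5, 14.4, 27.3 and 32.9 CPM in E6. The E8 libraries had 24.5, 18.8, 8.67, 22.8, 18.2, 8.52, 23.9 and 19.9 CPM, and replicate 1 of t0 had 27.2 CPM. BA was below E6 at 8 of 8 times and below E8 at 7 of 8 times. The difference between BA and E6 was -1.08 ± 0.23 on the log2 scale (adjusted p = 0.00174 by edgeR), which is 2.11-fold lower in BA. The lowest TRIB3 values fell at 18, 36 and 42 h in BA and at 18 and 36 h in E8. Of these, the BA library at 42 h and the E8 libraries at 18 and 36 h also had little CDH1, the E-cadherin gene, with 18.2 to 24.2 CPM against 41.3 to 192 CPM in the other 21 libraries. Without these 3 libraries the difference in TRIB3 was -0.90 and was still called.

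The division between ASNS and TRIB3 shows in their ratio within a library, a quantity chosen after the values had been seen and given without a test. ASNS CPM over TRIB3 CPM ran from 8.69 to 73.7 in the 8 BA libraries (median 24.9), from 3.58 to 8.89 in E6 (median 6.16) and from 5.28 to 15.1 in E8 (median 6.82). The lowest BA ratio, at 48 h, was just under the highest E6 ratio, at 6 h. At 24 h the 3 BA replicates had ratios of 22.6, 25.8 and 22.2, against 6.42, 8.17 and 7.28 at t0, and the replicates of each group lay close together. At 48 h the ratios were 8.69, 13.8 and 18.3 in BA, against 4.09, 6.18 and 7.21 in E6 and 5.48, 8.64 and 9.11 in E8.

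**Figure D2:**
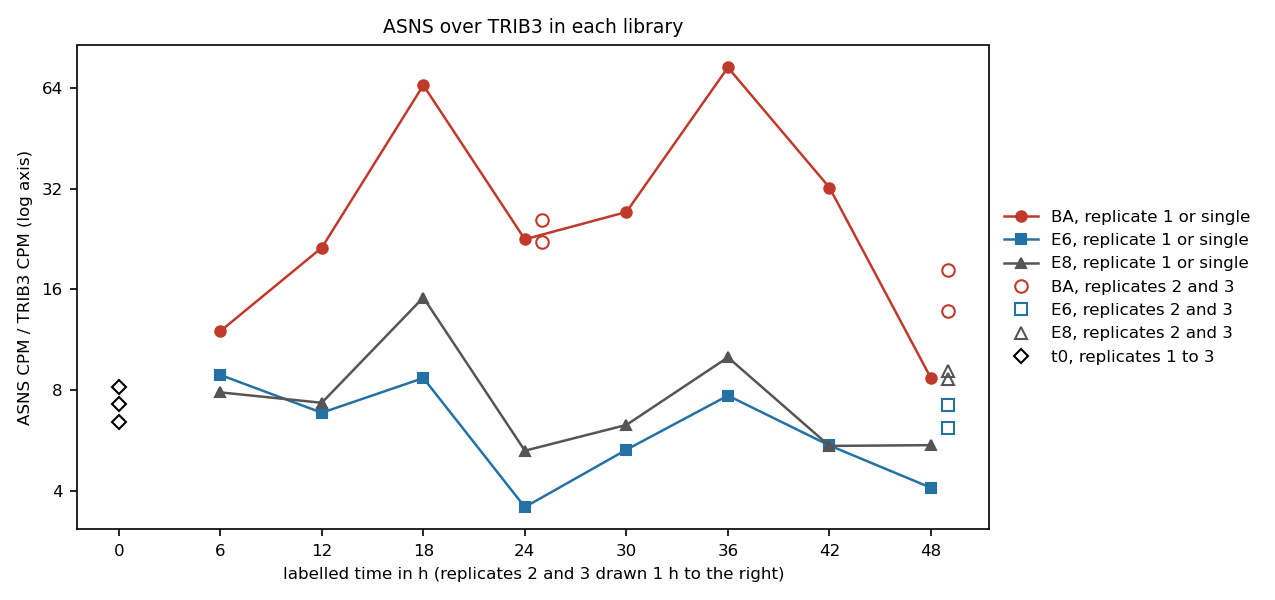
Ratio of ASNS CPM to TRIB3 CPM in each of the 35 libraries (vertical log axis) against labelled time in hours. Filled symbols and lines are replicate 1 or single libraries, open symbols are replicates 2 and 3 (drawn 1 h to the right) and diamonds are t0; BA reaches 73.7 at 36 h, and E6 stays between 3.58 and 8.89 in the single series.

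Of the 3 genes of serine and glycine synthesis, PSAT1 and SHMT2 were lower in BA and PHGDH was not called. PSAT1 (chr9:78297143-78330093), the transaminase of the serine pathway, had a lowest, median and highest value of 222, 275 and 397 CPM in BA, against 326, 357 and 418 CPM in E6 and 263, 342 and 453 CPM in E8. It was lower in BA than in E6 at 7 of 8 times, and the fitted difference was -0.31 ± 0.09 on the log2 scale (adjusted p = 0.0105 by edgeR). SHMT2 (chr12:57229327-57234935), the mitochondrial enzyme that turns serine into glycine and a folate-bound carbon unit, had 153, 177 and 259 CPM in BA, against 208, 233 and 368 CPM in E6 and 183, 237 and 275 CPM in E8. Its difference between BA and E6 was -0.33 ± 0.10 (adjusted p = 0.0157 by edgeR), lower at 6 of 8 times, and -0.24 without the E6 library at 18 h, which holds the 368 CPM. BA was also below E8 at 8 of 8 times for SHMT2, a contrast for which no fit was made. PHGDH (chr1:119648411-119744226), the entry enzyme of the serine pathway, had 320, 370 and 433 CPM in BA, against 345, 390 and 711 CPM in E6 and 352, 382 and 520 CPM in E8. Its difference of -0.14 ± 0.09 was not called (adjusted p = 0.294 by edgeR), and its highest value again belonged to the E6 library at 18 h.

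VLDLR (chr9:2621834-2660053) had 47.6, 44.3, 45.0, 67.2, 85.3, 67.9, 89.1 and 91.7 CPM in BA from 6 to 48 h, against 54.7, 37.5, 24.7, 38.3, 43.7, 48.6, 85.1 and 71.6 CPM in E6. The BA libraries separated from E6 at 18 to 36 h and were close to it at 42 h. The difference was 0.48 ± 0.13 on the log2 scale (adjusted p = 0.00876 by edgeR), higher in BA at 7 of 8 times. In E8 the gene stayed at 31.9, 45.7 and 58.7 CPM (lowest, median and highest).

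ATF4 (chr22:39519695-39522685) mRNA itself did not differ between BA and E6 beyond the spread between time points. It had 155, 194 and 283 CPM (lowest, median and highest) in BA, against 168, 195 and 315 CPM in E6 and 145, 189 and 283 CPM in E8, and its difference between BA and E6 was -0.06 ± 0.12 (adjusted p = 0.731 by edgeR; approximate 95% interval -0.30 to 0.17). DDIT3 (chr12:57516588-57521737) was low in all 3 media, with 0.889, 1.44 and 5.62 CPM in BA, against 0.96, 1.61 and 2.97 CPM in E6 and 0.968, 1.46 and 2.47 CPM in E8. These levels rest on 15 to 88 counts in BA, 16 to 54 in E6 and 17 to 42 in E8, and the difference of 0.12 ± 0.27 was not called (adjusted p = 0.769 by edgeR). CHAC1 (chr15:40952962-40956519), an enzyme that degrades glutathione and is a late target of ATF4 and CHOP, had 2.12, 6.57 and 39.7 CPM in BA, against 6.72, 11.5 and 24.6 CPM in E6 and 3.18, 10.5 and 12.8 CPM in E8. Its difference of -0.51 ± 0.32 was not called (adjusted p = 0.246 by edgeR), and the values from single times ran from -2.93 at 42 h to 0.69 at 48 h.

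The last BA library of the series stood above the one before it in all 9 genes. In BA, CHAC1 was at 39.7 CPM at 48 h against 2.12 CPM at 42 h, TRIB3 at 27.8 CPM against 4.67 CPM, and DDIT3 at 5.62 CPM against 1.94 CPM. ATF4 stood at 283 CPM against 155 CPM, SHMT2 at 259 CPM against 153 CPM and ASNS at 242 CPM against 151 CPM. PSAT1 was at 376 CPM against 222 CPM, PHGDH at 385 CPM against 320 CPM and VLDLR at 91.7 CPM against 89.1 CPM. These are 1 library each, with no replicate at 42 h, and the 42 h library is among those with little CDH1, so the step has no test. In E6 the libraries at 36, 42 and 48 h had 6.72, 16.2 and 24.6 CPM of CHAC1 and 14.4, 27.3 and 32.9 CPM of TRIB3. The E8 libraries at these times had 3.18, 11.3 and 9.74 CPM of CHAC1 and 8.52, 23.9 and 19.9 CPM of TRIB3. Both genes thus rose from 36 to 42 h in E8 as well, where the 36 h library had little CDH1, and did not rise further at 48 h.

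**Figure D3:**
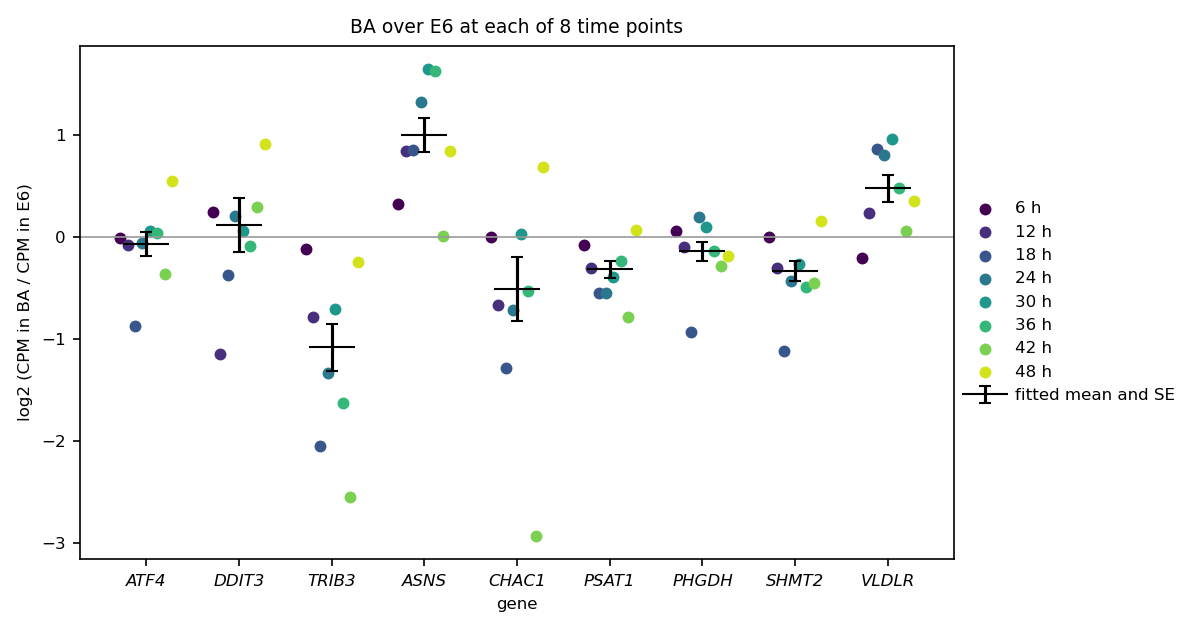
Log2 ratio of BA to E6 CPM for each gene at each of the 8 times (coloured points, dark for early and yellow for 48 h), with the fitted mean and its SE in black. All 8 points lie above 0 for ASNS and below 0 for TRIB3, and ATF4, DDIT3, CHAC1 and PHGDH straddle 0.

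Between E6 and E8 no difference was called over the time course. By edgeR 0% of the 16971 genes and 0 of the 9 were called, and by DESeq2 also 0. At an unadjusted p below 0.05 there were 216 genes, 0 of them among the 9. TRIB3 was higher in E6 at 7 of 8 times, from -0.31 to 1.17 on the log2 scale, and the other 8 genes were higher in E6 at 3 to 6 of 8 times. Read against time in hours, VLDLR climbed in BA by 0.027 ± 0.0089 log2 units per hour (adjusted p = 0.0302 by edgeR), and 20.6% of all genes had a called slope in BA. The call was lost when the libraries of 12, 42 or 48 h were left out (adjusted p up to 0.117), and without the 3 libraries with little CDH1 (adjusted p = 0.0701), and it was the single one among the 9 with all libraries. DDIT3 had a larger slope in BA of 0.033 ± 0.013 that was not called (unadjusted p = 0.0165, adjusted p = 0.0712 by edgeR). It ran from -0.0025 to 0.060 when a time point was left out, and was called without the 6 h or the 36 h libraries. Without the 3 libraries with little CDH1, CHAC1 was the single gene of the 9 with a called slope in BA (0.042, adjusted p = 0.0497 by edgeR). With all libraries the CHAC1 slope was 0.032 ± 0.017 and was not called (adjusted p = 0.222 by edgeR). It ran from -0.041 to 0.061 when a time point was left out, with 0 calls in these 8 fits. CHAC1 in BA was at 4.66 to 12.6 CPM from 6 to 36 h and at 39.7 CPM at 48 h. The slope in E6 was called for 0 of the 9 by edgeR (0.23% of all genes) and 0 by DESeq2 (137 genes). At an unadjusted p below 0.05 there were 1994 of all 16971 genes and 1 of the 9, VLDLR, which was called without the 6 h libraries. The slope in E8 was likewise called for 0 of the 9 (0% of all genes, with 872 at an unadjusted p below 0.05 and 19 by DESeq2), with 1 of the 9, ASNS, at an unadjusted p below 0.05. The slope in BA minus that in E6 was called for 0 of the 9 by edgeR (9.17% of all genes) and 0 by DESeq2 (2007 genes). Of the 9, 0 had an unadjusted p below 0.05 there, against 3530 of all genes. The slope in E6 minus that in E8 was called for 0 of the 9 by edgeR (0% of all genes) and 0 by DESeq2 (0 genes). Of the 9, 0 had an unadjusted p below 0.05 there too, against 407 of all genes.

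At 24 h in BA, TRIB3 was also below its level at t0 in the replicated groups. It had 11.8, 17.2 and 19.1 CPM in BA replicates 1 to 3, against 27.2, 36.1 and 42.4 CPM at t0, with no overlap. The means were 16.0 ± 3.81 CPM in BA at 24 h and 35.2 ± 7.59 CPM at t0 (SD, n = 3 each), and the fit gave -1.09 ± 0.22 on the log2 scale (adjusted p = 0.0285 by edgeR), with within-replicate differences of -1.21, -1.07 and -1.15. TRIB3 was the single call among the 9 genes, against 1.57% of all genes tested. With the replicate number as a block its adjusted p was 0.00135 and 4 of the 9 genes were called (8.95% of all genes): TRIB3, PSAT1 (adjusted p = 0.0107) and SHMT2 (0.0442) lower, and ASNS (0.0129) higher, all by edgeR. The unblocked TRIB3 call was lost, with adjusted p up to 0.114, without BA replicate 1 or 2 or t0 replicate 2 or 3.

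In replicates 2 and 3 alone, 7 of the 9 genes were called at 24 h (20.7% of all genes). DDIT3 fell to 5.12 and 4.90 CPM in BA, against 9.86 and 11.1 CPM at t0 (log2 -1.02 ± 0.15, adjusted p = 7.92e-04 by edgeR), and its within-replicate difference in replicate 1 had the same sign, at -0.86. CHAC1 fell to 44.2 and 47.8 CPM, against 66.4 and 68.9 CPM at t0 (-0.51 ± 0.08), and TRIB3, PSAT1 and SHMT2 fell as well, by 1.06, 0.49 and 0.32. ASNS rose to 445 and 424 CPM, against 295 and 309 CPM at t0 (0.58 ± 0.09), and VLDLR rose by 0.53 ± 0.10. For VLDLR the difference in replicate 1 was -0.05, with 67.2 CPM in BA and 69.5 CPM at t0, and with the block over all 3 replicates it was 0.29 and not called (adjusted p = 0.659 by edgeR). ATF4 had 499 and 486 CPM in BA, against 507 and 470 CPM at t0, and was not called (0.06 ± 0.11). With n = 2 a group these p-values rest on a narrow spread between paired libraries.

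**Figure D4:**
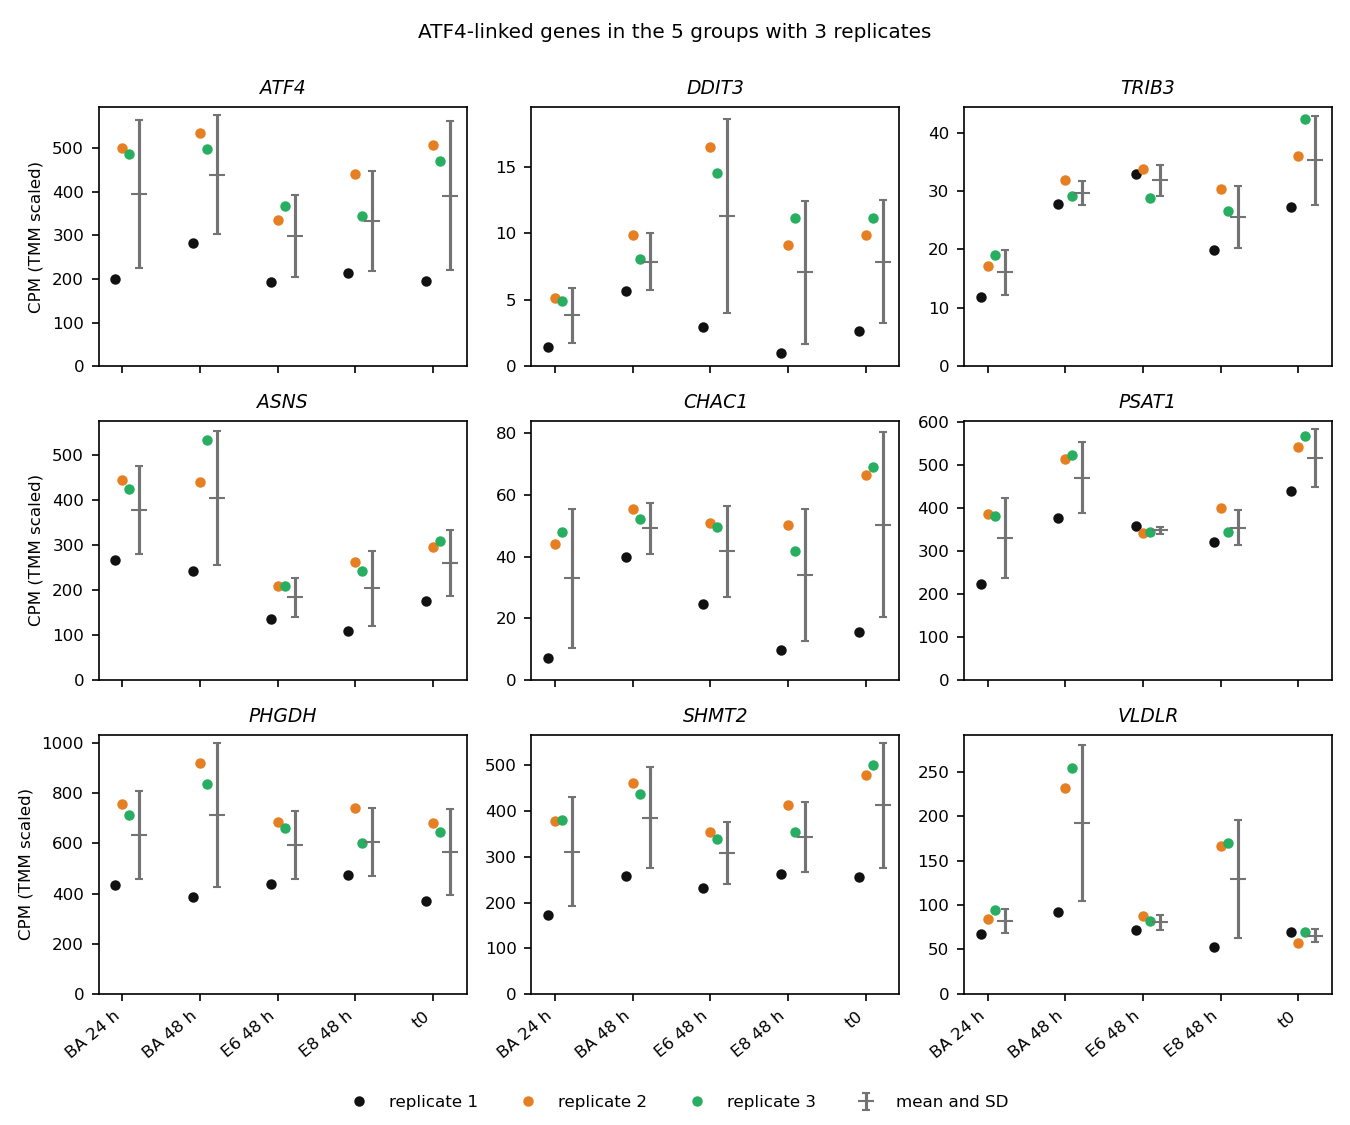
CPM of the 9 genes (vertical axes, from 0) in the 5 groups with 3 replicates, with replicate 1 in black, replicate 2 in orange, replicate 3 in green and the mean and SD in grey. TRIB3 in BA at 24 h sits at 11.8 to 19.1 CPM, below the 27.2 to 42.4 CPM at t0, and replicate 1 lies under replicates 2 and 3 in all 5 groups for ATF4, DDIT3, ASNS, CHAC1, PHGDH and SHMT2.

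At 48 h in BA, VLDLR was the gene called against t0, and TRIB3 was not (-0.18 ± 0.22 on the log2 scale, adjusted p = 0.809 by edgeR). VLDLR had 91.7, 232 and 254 CPM in BA at 48 h, against 69.5, 57.4 and 70.2 CPM at t0, with means of 193 ± 88.0 and 65.7 ± 7.16 CPM (SD, n = 3 each) and no overlap. The difference was 1.60 ± 0.42 (adjusted p = 0.0440 by edgeR; 6.37% of all genes called), and the step was far smaller in replicate 1, with within-replicate values of 0.40, 2.01 and 1.86. Of the 6 fits that left out a single library, the call held without BA replicate 1 (adjusted p = 0.0142) and was lost in the other 5, with adjusted p up to 0.165. With the block 3 of the 9 were called (28.5% of all genes), all higher: VLDLR (adjusted p = 0.00757), ASNS (0.00258) and PHGDH (0.0309), by edgeR. In replicates 2 and 3 alone (46.7% of all genes) VLDLR, ASNS and PHGDH rose by 1.99, 0.75 and 0.47, and TRIB3 and CHAC1 fell by 0.30 and 0.27. For CHAC1 the replicate sets disagreed in sign, with 1.34 in replicate 1 and -0.26 and -0.40 in replicates 2 and 3.

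E6 and E8 at 48 h against t0 had 0 calls among the 9 genes by edgeR (3.88% and 0.139% of all genes) and 0 by DESeq2 (2434 and 1310 genes). Of all 21554 genes tested, 4287 in E6 and 3226 in E8 had an unadjusted p below 0.05. Of the 9 genes, 1 in E6 and 2 in E8 did. PSAT1 was among them in both, with 358, 343 and 343 CPM in E6 and 320, 400 and 343 CPM in E8, against 439, 542 and 567 CPM at t0, and neither group overlapped t0. Its differences were -0.51 ± 0.20 in E6 (adjusted p = 0.169) and -0.50 ± 0.20 in E8 (adjusted p = 0.256), both by edgeR. With the block PSAT1 was called in both (adjusted p = 0.0118 in E6 and 0.0173 in E8, where 35% and 25.6% of all genes were called), as were ASNS (0.0203) and SHMT2 (0.0329) in E6, both lower. The E6 and E8 comparisons share the t0 libraries. VLDLR in E8 at 48 h was at 52.3, 166 and 170 CPM, so that replicate 1 lay under the t0 range and replicates 2 and 3 above it, and its difference from t0 was not called (1.02 ± 0.42, adjusted p = 0.268 by edgeR) but was called without E8 replicate 1 (adjusted p = 0.0464). In replicates 2 and 3 alone the count of calls was 7 of 9 in E6 (54.4% of all genes) and 5 of 9 in E8 (51.3%).

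Between BA and E6 at 48 h, 0 of the 9 were called by edgeR without a block (3.52% of all genes). At an unadjusted p below 0.05 there were 3 of the 9, against 3348 of all 21554 genes. DESeq2 called 2 of the 9 (ASNS and VLDLR), against 1603 of all genes. With the block 4 were called (22.1% of all genes), all higher in BA. ASNS had 242, 441 and 533 CPM in BA, against 135, 209 and 208 CPM in E6, and the groups did not overlap. Its difference was 1.14 ± 0.37 (adjusted p = 0.138 without and 1.81e-04 with the block, by edgeR), higher in 3 of 3 replicates. ATF4 had 283, 535 and 498 CPM in BA, against 192, 335 and 368 CPM in E6, a difference of 0.55 ± 0.44 that was also higher in 3 of 3 replicates (adjusted p = 0.688 without and 0.00629 with the block, by edgeR). VLDLR (1.25 ± 0.42, adjusted p = 0.144 without and 0.0248 with the block) and PSAT1 (0.44 ± 0.20, 0.308 and 0.0363) were the others, so PSAT1, lower in BA over the time course, was at 376, 512 and 522 CPM in BA at 48 h, against 358, 343 and 343 CPM in E6. TRIB3 was not called there, at 27.8, 31.9 and 29.2 CPM in BA, against 32.9, 33.8 and 28.8 CPM in E6 (-0.09 ± 0.22; approximate 95% interval -0.51 to 0.33). SHMT2, also lower in BA over the time course, was higher in BA at 48 h in 3 of 3 replicates (0.17, 0.38 and 0.36). Its difference of 0.32 ± 0.34 was not called without the block (adjusted p = 0.815) or with it (0.0558), by edgeR. DDIT3 differed in sign between the replicate sets, with 0.92 in replicate 1 and -0.73 and -0.85 in replicates 2 and 3. In replicates 2 and 3 alone 7 of the 9 were called (36.7% of all genes), 6 higher and DDIT3 lower.

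Between E6 and E8 at 48 h, 0 of the 9 genes were called by edgeR without the block (0.144% of all genes) and 0 with it (2.84%). Of the 9, 0 had an unadjusted p below 0.05 without the block (1017 of all 21554 genes), and DESeq2 called 0 (226 genes). The differences ran from -0.67 ± 0.41 for VLDLR to 0.69 ± 0.83 for DDIT3. In replicates 2 and 3 alone (18.4% of all genes) VLDLR fell by 0.96 and DDIT3 rose by 0.63 in E6, and for VLDLR replicate 1 went the other way (0.45).

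The authors' deposited table, from their DESeq2 test against a group its header does not name, called 1 of the 9 genes for BA at 24 h, TRIB3, with a log2 change of -1.04 and an adjusted p of 0.00486. For BA at 48 h the authors' deposited table called VLDLR (1.47, adjusted p of 0.00973), for E6 at 48 h PSAT1 (-0.54, adjusted p of 0.0235) and for E8 at 48 h 0 of the 9.

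The wider response was read from 72 further genes in 8 lists: eIF2 kinases and phosphatase subunits, ATF4 partners and stress mediators, serine, glycine and folate enzymes, proline and other amino acid enzymes, amino acid transporters, tRNA synthetases, ER chaperones with the ATF6 and XBP1 arms, and the LDL receptor family. Over the time course 70 were tested, of which 11 were higher and 17 lower in BA than in E6, or 40% against 30.9% of all genes. Of the 12 genes of the ER chaperone, ATF6 and XBP1 list 6 rose and 0 fell (median 0.32), with DNAJC3, an inhibitor of PERK, highest at 0.65 ± 0.10 (adjusted p = 5.21e-05 by edgeR). Of the 5 proline and other amino acid enzymes 4 fell and 0 rose (median -0.28), of the 9 serine, glycine and folate enzymes 3 fell and 1 rose (median -0.22), and of 9 tested ATF4 partners and stress mediators 3 fell and 0 rose (median -0.30). The 7 eIF2 kinases and phosphatase subunits had 2 higher and 3 lower (median -0.04), and the 13 tRNA synthetases with their exporter XPOT 0 higher and 2 lower (median -0.13). The 11 amino acid transporters had 1 higher and 1 lower (median -0.14), and the 4 genes of the LDL receptor family 1 and 1 (median 0.03). Over all genes 16.5% were called higher and 14.3% lower, and no test was made of a difference between lists. The median of all genes in this fit was -0.0035.

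**Figure D5:**
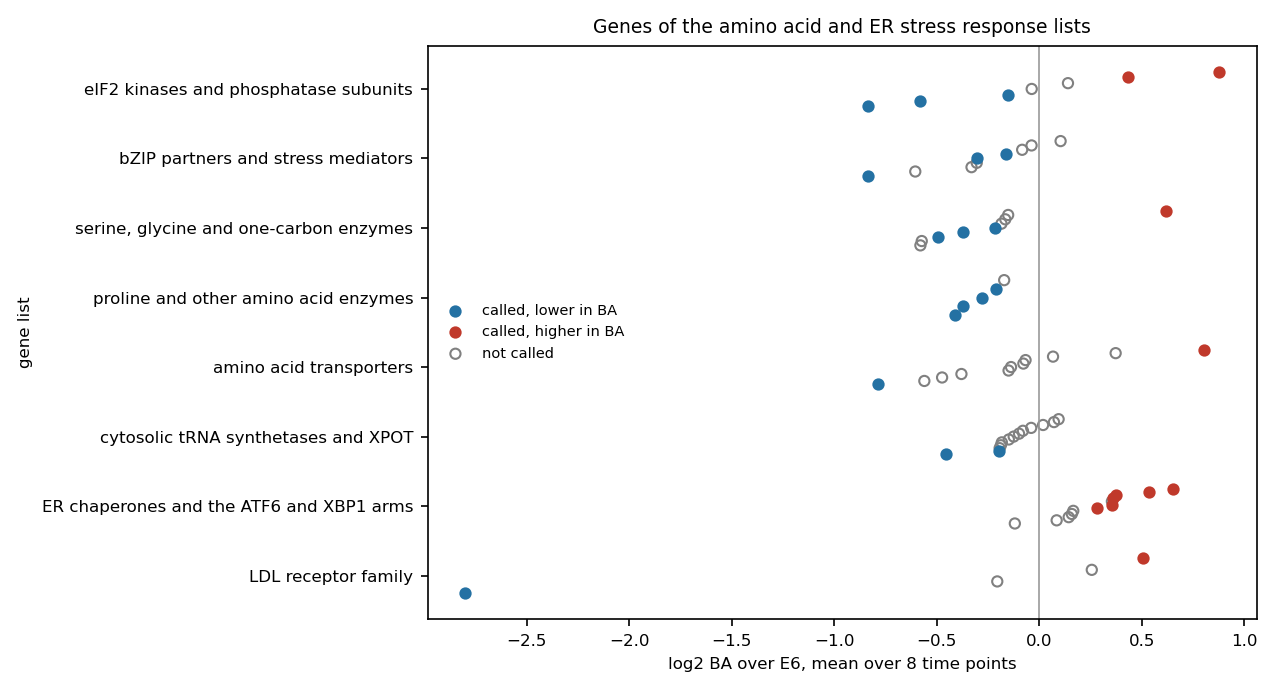
Fitted log2 difference between BA and E6 over the time course (horizontal axis) for the 70 tested genes of the 8 lists (rows, 1 point per gene). Red points were called higher in BA (11 genes), blue points lower (17) and open points were not called; the list of ER chaperones with the ATF6 and XBP1 arms holds 6 red and 0 blue points and the proline list 4 blue and 0 red.

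EIF2AK4, the kinase GCN2 that senses uncharged tRNA, was lower in BA in each test where it was called. Its lowest, median and highest values over the time course were 95.2, 112 and 179 CPM in BA, against 156, 239 and 257 CPM in E6 (-0.84 ± 0.14, adjusted p = 1.58e-04 by edgeR). At 24 h its difference from t0 was -0.85 (adjusted p = 0.0387), at 48 h -0.90 (adjusted p = 0.0134), and at 48 h against E6 -0.80 (adjusted p = 0.0320), all by edgeR. PPP1R15A, the GADD34 subunit that directs dephosphorylation of eIF2, went the other way, with 20.1, 25.4 and 73.5 CPM in BA, against 15, 16.4 and 23.8 CPM in E6 (0.88 ± 0.20, adjusted p = 0.00242 by edgeR). It climbed with time in BA by 0.041 log2 units per hour (adjusted p = 7.85e-06 by edgeR), more steeply than in E6 (a difference in slope of 0.046, adjusted p = 6.44e-04).

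SLC7A5, the light, catalytic chain of the LAT1 transporter for leucine and other large neutral amino acids, had 230, 544 and 817 CPM in BA over the time course, against 242, 284 and 453 CPM in E6 (0.80 ± 0.19, adjusted p = 0.00353 by edgeR). At 48 h it reached 817 to 1545 CPM in the 3 BA replicates, against 273 to 284 CPM in E6 (2.21 ± 0.25, adjusted p = 8.75e-04 by edgeR), and E6 at 48 h was in turn below the 601 to 838 CPM of t0 (-1.37, adjusted p = 0.0157). WARS, the tryptophanyl-tRNA synthetase, followed the same order at 48 h, with 213 to 381 CPM in BA, against 120 to 130 CPM in E6 (1.34, adjusted p = 0.00498 by edgeR), and E6 lay below the 198 to 283 CPM of t0 (-0.91, adjusted p = 0.0382). E8 at 48 h was also below t0, at 278 to 490 CPM of SLC7A5 (-0.93) and 122 to 134 CPM of WARS (-0.89). These differences in E8 were called with the block (adjusted p = 0.00276 and 0.00323) but not without it (0.111 and 0.0956), by edgeR. The VLDLR relative LRP8 was also higher in BA than in E6 at 48 h (1.24, adjusted p = 0.0400 by edgeR). LRP2, which encodes megalin, was lower in BA over the time course at 0.786, 1.73 and 11.1 CPM, against 0.885, 15.7 and 42.2 CPM in E6 (-2.80 ± 0.55, adjusted p = 7.97e-04 by edgeR). STC2, a secreted glycoprotein gene induced by ATF4, was lower in BA than in E6 over the time course (-0.84 ± 0.19, adjusted p = 0.00234 by edgeR). It was not lower at 48 h, at 96.8, 270 and 280 CPM in the BA replicates (lowest, median and highest), against 87.9, 238 and 249 CPM in E6.

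In the replicated groups without the block, the shares of the 72 genes called were close to or below that of all genes in BA and above it in E6 and between BA and E6. BA at 24 h had 0 higher and 1 lower against t0 (1.39%, against 1.57% of all genes), and BA at 48 h had 2 and 1 (4.17%, against 6.37%). E6 at 48 h had 1 higher and 5 lower against t0 (8.33%, against 3.88%), and BA against E6 at 48 h had 4 and 1 (6.94%, against 3.52%). By edgeR 0 of the 72 were called for E8 at 48 h against t0 and 0 for E6 against E8 at 48 h. For E8 against t0, 18 of the 72 had an unadjusted p below 0.05 and DESeq2 called 8, against 3226 and 1310 of all 21554 genes. For E6 against E8, 3 of the 72 had an unadjusted p below 0.05 and DESeq2 called 0, against 1017 and 226 of all genes. With the block BA at 48 h had 33 higher and 4 lower of 72 against E6 (51.4%, against 22.1% of all genes), and E6 at 48 h had 4 higher and 31 lower against t0 (48.6%, against 35% of all genes). E8 at 48 h had 4 higher and 24 lower against t0 (38.9%, against 25.6%), and BA at 24 h had 1 and 14 (20.8%, against 8.95%). BA at 48 h had 16 higher and 4 lower against t0, a share of 27.8% that lay close to the 28.5% of all genes. E6 against E8 at 48 h had 0 calls with the block by edgeR (2.84% of all genes), with 11 at an unadjusted p below 0.05. DDIT4, a stress gene that restrains mTORC1, had 38.2, 121 and 150 CPM in BA at 48 h (lowest, median and highest of 3), 116, 229 and 230 CPM in E6 and 65.5, 103 and 113 CPM in E8, against 12.3, 20.4 and 26.7 CPM at t0. No group overlapped t0, and by edgeR the gene was called higher in BA (2.44, adjusted p = 0.0410) and in E6 (3.35, adjusted p = 0.0207). The difference in E8 was of similar size to that in BA (2.31) and was called with the block (adjusted p = 0.00129) but not without it (adjusted p = 0.119, by edgeR). CTH, which makes cysteine from cystathionine, rose in BA at 48 h to 21.1, 22.4 and 22.8 CPM, against 11.9, 13.0 and 13.1 CPM at t0 (0.87, adjusted p = 0.0225 by edgeR). At 48 h it was at 12.4, 19.4 and 20.0 CPM in E8 and at 13.7, 13.9 and 14.6 CPM in E6. The CTH difference between E8 and t0 was 0.49, called with the block (adjusted p = 0.0435) but not without it (0.256), by edgeR. XBP1, a factor of the unfolded protein response, fell in E6 at 48 h (-0.84, adjusted p = 0.0443 by edgeR). The XBP1 difference in E8 at 48 h was -0.69, called with the block (adjusted p = 0.0107) but not without it (adjusted p = 0.141, by edgeR).

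Along hours in BA, SHMT1, the cytosolic partner of SHMT2, and LRP8 climbed by 0.023 and 0.025 log2 units per hour (adjusted p = 0.00313 and 0.0166 by edgeR). In the replicated BA groups SHMT1 was at 71.4, 71.8 and 93.2 CPM at 24 h (lowest, median and highest). At 48 h it had not climbed, at 60.4, 62.5 and 85.1 CPM. Its difference from t0 at 48 h was 0.21, not called without the block (adjusted p = 0.640) or with it (0.303), by edgeR. That of LRP8 was 0.73, called with the block (adjusted p = 0.00248) but not without it (0.179), by edgeR. GLDC, which breaks down glycine, fell by 0.053 per hour (adjusted p = 3.93e-07 by edgeR), with 53.6 to 120 CPM at 30 to 48 h, against 170 to 215 CPM at 6 to 24 h. The replicated BA group at 48 h had 57.2, 139 and 142 CPM of GLDC (lowest, median and highest), against 168, 193 and 196 CPM at t0. The lowest value was that of the time course, so the fall was smaller in the other replicates. The GLDC difference from t0 was -0.67, not called without the block (adjusted p = 0.190) or with it (0.0803), by edgeR.

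Across the 25 libraries of replicate 1 or without a number, the 9 genes did not share 1 profile, as the correlations of log2(CPM + 1) show. These are descriptions over libraries of 1 time series and carry no test. The pair TRIB3 and CHAC1 had r = 0.86, TRIB3 and PSAT1 0.76, and ATF4 and PHGDH 0.73, whereas ASNS had r = -0.37 with TRIB3 and 0.08 with ATF4. With the mean standardised profile of the 9, CHAC1 correlated at 0.93, TRIB3 at 0.78, SHMT2 at 0.74 and ATF4 at 0.73, and VLDLR and ASNS at 0.11 and 0.095. The 8 other genes most like that mean, of 9904 with at least 10 CPM, were CARS (0.917), PCK2 (0.901), ATF3 (0.874), SARS (0.846), SESN2 (0.818), INHBE (0.796), LMNA (0.793) and GARS (0.790).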

How the data were processed

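Poly(A) RNA of H9 cells was sequenced in 35 libraries. Gene levels came from the deposited table of whole counts per gene; per the file headers and the submitters' processing notes these are hg38 counts on GENCODE 23 genes from featureCounts, with no versions given, and the aligner and strand setting are not given in the sources used here. A second table holds the authors' DESeq2 log2 fold changes and p-values, per the file headers, against an unnamed group; its entries are quoted only as such. Counts were tested with edgeR 4.0.16 (R 4.3.3, limma 3.58.1): TMM factors, filterByExpr with a minimum count of 10, quasi-likelihood F-test, Benjamini-Hochberg adjustment over all genes, called below 0.05. One model of group covered the 15 libraries of the 5 replicated groups. Another used the 24 libraries of replicate 1 or single at 6 to 48 h with time point and medium, or with a linear term of hours within medium. Library totals of 11793453 to 37191969 counts limit the precision of low values such as DDIT3. Correlations use log2(CPM + 1).

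Same-numbered replicates deviated together (r of deviations across genes 0.622 to 0.918 over 18 pairs), so the numbers were taken to pair the libraries, and the blocked value is given where it changes a call. Replicates 2 and 3 crossed gave 0.611 to 0.792, so the check separates replicate 1 from the others more than 2 from 3. Alternatives were the block, DESeq2 1.42.0, RLE factors, no filter, only the groups compared, and leaving out libraries, time points or replicate 1. On counts simulated with a log2 change of 2, up or down, in 1 group, the first model recovered 57.5% of the changed genes. Smaller changes were not simulated for it. The text names all 9 genes, at most 3 rising and 3 falling genes of the lists per comparison with at least 5 CPM, and the 8 genes most like the 9. The genes and lists were chosen with earlier results of these data known. Positions and overlaps came from GENCODE 29 (GRCh38), promoters from RefSeq.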

Additional observations from a re-analysis of the deposited data

How the results depend on the processing

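The time course calls were the most stable: TRIB3, ASNS, PSAT1, SHMT2 and VLDLR were called between BA and E6 under all 13 alternatives run for each, and leaving out a time point kept the count at 5. These fits all reused libraries of the same series, with 1 per medium and time point, so they cannot show how far the calls depend on that series. In the replicated groups at 48 h TRIB3 was not called between BA and E6, and PSAT1 and SHMT2 were higher in BA in 3 of 3 replicates. Calls in the replicated groups were less stable. With the replicate block, the calls against t0 numbered 4 in BA at 24 h and, at 48 h, 3 in BA, 3 in E6 and 1 in E8, and 4 were made between BA and E6. DESeq2 called 2 in BA at 24 h against t0 and 2 between BA and E6 at 48 h. Without the filter on low counts, and in fits of only the 2 groups, 0 were called in BA against t0 at 24 h and 0 at 48 h. Leaving out a library or replicate 1 gave, against t0, 0 to 7 calls in BA at 24 h and, at 48 h, 0 to 5 in BA, 0 to 7 in E6 and 0 to 5 in E8. It gave 0 to 7 between BA and E6 at 48 h and 0 to 2 between E6 and E8. The upper end of each range comes from replicates 2 and 3 alone. Leaving out a time point gave 0 to 2 calls for the slope in BA and 0 to 1 for that in E6. The 21 results followed for single genes were those called without or with the block, so some were not called in the fit without it. Set against that fit, 213 of their 259 values kept the direction and stayed either called or not called. A further 17 lost the call, 29 gained it and 0 changed sign. Over all genes DESeq2 called 845, 2514, 2434, 1310, 1603 and 226 where edgeR called 339, 1373, 836, 30, 759 and 31 (BA at 24 h, then BA, E6 and E8 at 48 h, each against t0, then BA against E6 and E6 against E8 at 48 h), and fits of only the groups compared called 114, 351, 3, 0, 76 and 0. Without the filter they called 236, 944, 234, 1, 573 and 21. In E6 the slope was called for 39 genes by edgeR and 137 by DESeq2. The 2 fits without the E6 library at 18 h and without the 3 libraries with little CDH1 were chosen after seeing the data.

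DDIT3, with 3922 counts in all libraries, lies over MARS on the other strand, with 271018, and the VLDLR antisense gene VLDLR-AS1 had 5.92% of the VLDLR counts; without a stated strand setting such reads cannot be told apart. The pseudogenes ATF4P4 and PSAT1P3 had 4.09% and 3.46% of the counts of ATF4 and PSAT1.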
